A study of Mus musculus with 32 samples.

Results

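The mitochondrial ribosomal protein genes were taken as the protein-coding genes whose GRCm38 symbol is Mrpl or Mrps followed by a number and at most 1 letter. This name rule used no measured value and found 78 of the 55401 genes counted, on 17 chromosomes, of which 51 encode proteins of the large subunit, 26 encode proteins of the small subunit and 1 (Mrps36) was assigned to neither. Their transcripts were counted in COX10 KO and control (CTL) C57BL/6 mice at 200 days of age: in calf muscle (gastrocnemius and soleus) and liver of 6 COX10 KO and 6 CTL mice each, labelled as 3 females and 3 males per genotype, and in hypothalamus of 4 COX10 KO and 4 CTL males. In the COX10 KO mice, homozygous COX10 Flx alleles were recombined by a Cre expressed from the Myl1 locus (Myl1 tm1(cre)Sjb), so that COX10, a farnesyltransferase needed to make the heme A of cytochrome c oxidase, is lost in skeletal muscle and not by design in liver or hypothalamus. The labels call the controls Ctrl, and no further allele of theirs is given in the sources used here. By the study's methods only males were used where nothing else is said, whereas muscle and liver samples carry labels of both sexes; sex is used here as labelled. No label ties libraries of different tissues to the same mouse.

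The mitochondrial ribosome translates the few mRNAs encoded by mitochondrial DNA, all of which specify subunits of the respiratory chain and ATP synthase. All of its proteins are encoded in the nucleus, made in the cytosol and imported, whereas its rRNAs are transcribed inside the organelle. Compared with its bacterial relative it has lost rRNA and gained proteins, so that some of its proteins have a bacterial homologue (46 of the members here) and others are specific to mitochondria (31). Skeletal muscle and liver are rich in mitochondria, and cytochrome c oxidase, the enzyme that COX10 serves, has catalytic subunits that are made on this ribosome.

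Libraries held 1734571 to 11404800 counts in COX10 KO muscle and 434494 to 8936522 in CTL muscle, 674311 to 3197080 in COX10 KO liver and 1955599 to 16044634 in CTL liver, and 3526613 to 5684034 in COX10 KO hypothalamus and 4070847 to 22321322 in CTL hypothalamus. The shallowest library was CTL muscle replicate 2, which also held 2369 CPM of summed liver markers, beside 11.4 to 331 CPM in COX10 KO muscle and at most 175 CPM in the other CTL muscle libraries. CTL muscle replicate 3 held 11296 CPM of erythrocyte markers, with at most 2002 CPM in the other CTL muscle libraries. Xist and Y-linked transcripts went against the labelled sex in 2 CTL liver libraries, those labelled 1 and 4. The genotype comparison in liver and its difference from muscle are given with and without them. Ranges in CTL liver and comparisons of levels between CTL tissues include both. Cox10 was counted at 95.1 to 140 CPM (counts scaled by library size) in COX10 KO muscle and 48.0 to 147 CPM in CTL muscle (adjusted p = 0.907); the reads lie at the 3′ end of the transcript, and where the deleted part lies is not given in the sources used here, so this count does not check the genotype. Myl1, which carries the Cre, was at 4232 to 8423 CPM in COX10 KO muscle and 6104 to 15124 CPM in CTL muscle (log2 fold change -1.06, adjusted p = 0.00836). Markers of liver, of skeletal muscle and of hypothalamus were abundant in the tissue they mark.

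Of the 78 members, 69 had a promoter window in RefSeq (GRCm38.p6), running from 250 bases before to 50 bases after the annotated start. These windows were searched on both strands for letters bound by factors known to act on mitochondrial genes. The ETS core CCGGAAG, the letters of the ETS family that includes GABP (NRF2), was present in 26 of 69 members (37.7%), against 9.93% of all 27025 genes with a window and 20.3% of the 8730 protein-coding genes tested in muscle. The YY1 letters AAGATGGC were present in 12 members (17.4%), against 3.19% of all genes and 5.41% of those tested in muscle. The NRF1 core GCATGCGC, which overlaps its own reverse complement, was present in 8 members (11.6%), against 3.05% and 6.00%. The E-box CACGTG was present in 5 members (7.25%), against 8.09% and 11.9%, and the ATF4 element TGATGCAA was in none of the 69, against 1.03% and 0.790%. A match is a description of the letters and not of binding.

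Windows of 4 members are shown because the results below turn on their genes: Mrps9 and Mrpl3 had the smallest p-values of the members in muscle, Mrpl39 is the called member with the NRF1 letters, and Mrpl42 had the highest level of the members in CTL muscle. They lie at chr1:42850983-42851282 (+ strand), chr9:105053018-105053317 (+ strand), chr16:84735195-84735494 (- strand) and chr10:95501900-95502199 (- strand), are written 5′ to 3′ on the strand of the gene, and carry matches to the 5 searched motifs in capitals. Mrps9 has no match, Mrpl3 has 1 ETS core whose first base is at -19 from the start, Mrpl39 has NRF1 letters on both strands from -125, and Mrpl42 has the YY1 letters from 28 after the start.
Mrps9: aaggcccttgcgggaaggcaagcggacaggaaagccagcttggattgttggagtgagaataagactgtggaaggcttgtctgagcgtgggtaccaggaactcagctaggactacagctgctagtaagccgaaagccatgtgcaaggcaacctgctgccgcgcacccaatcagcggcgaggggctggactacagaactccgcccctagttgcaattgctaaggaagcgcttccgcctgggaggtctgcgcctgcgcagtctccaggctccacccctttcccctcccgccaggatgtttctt
Mrpl3: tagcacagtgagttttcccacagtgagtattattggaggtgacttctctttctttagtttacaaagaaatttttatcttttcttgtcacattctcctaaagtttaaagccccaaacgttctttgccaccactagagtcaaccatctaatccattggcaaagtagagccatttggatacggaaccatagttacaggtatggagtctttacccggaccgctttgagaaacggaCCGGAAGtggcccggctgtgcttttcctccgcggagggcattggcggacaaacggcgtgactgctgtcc
Mrpl39: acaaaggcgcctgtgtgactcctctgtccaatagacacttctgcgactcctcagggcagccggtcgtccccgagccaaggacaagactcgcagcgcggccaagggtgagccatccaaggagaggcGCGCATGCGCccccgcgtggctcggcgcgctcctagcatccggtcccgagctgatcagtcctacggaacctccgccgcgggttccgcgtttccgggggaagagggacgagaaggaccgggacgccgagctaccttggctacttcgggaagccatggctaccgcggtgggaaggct
Mrpl42: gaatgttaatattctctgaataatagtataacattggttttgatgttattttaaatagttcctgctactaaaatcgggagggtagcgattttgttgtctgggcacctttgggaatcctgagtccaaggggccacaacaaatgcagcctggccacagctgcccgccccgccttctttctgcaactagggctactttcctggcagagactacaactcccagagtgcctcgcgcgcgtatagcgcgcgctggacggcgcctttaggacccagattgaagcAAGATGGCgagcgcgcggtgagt

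In COX10 KO muscle, 10 members were higher and 1 was lower than in CTL muscle. The members took a larger share of the counts of every COX10 KO muscle library, 0.386% to 0.461% (median 0.407%), than of any CTL muscle library, 0.262% to 0.338% (median 0.321%). In liver the shares overlapped, at 0.251% to 0.349% in COX10 KO and 0.242% to 0.303% in CTL mice, and so they did in hypothalamus, at 0.183% to 0.256% in COX10 KO and 0.189% to 0.255% in CTL mice. The separation in muscle was on the scale of all counts. After scaling by trimmed mean of M values (TMM), which sets aside the most abundant and most changed genes, the summed level of the members was 3492 to 4331 CPM in COX10 KO muscle and 2569 to 3697 CPM in CTL muscle, and the groups overlapped.

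**Figure D1:**
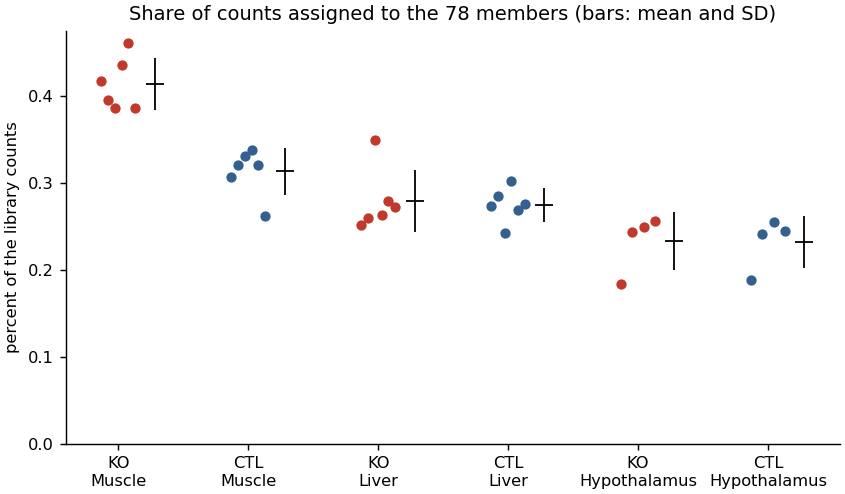
Share of each library's counts assigned to the 78 members, in percent (vertical axis), for COX10 KO and CTL libraries of each tissue. Points are libraries, bars the mean and SD. In muscle every COX10 KO library (0.386% or more) lies above every CTL library (0.338% or less), and in liver and hypothalamus the genotypes overlap.

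Genotypes were compared by edgeR's quasi-likelihood F test, which allowed for labelled sex in muscle and liver, and genes were called at an adjusted p under 0.05 over all genes tested. In muscle 73 of the 78 members passed the filter on low counts. Of these, 10 were called higher (13.7%), beside 6.90% of the 11636 genes tested, and 1 was called lower (1.37%), beside 7.43%. The log2 fold change was positive in 50 of the 73 members, with a median of 0.27, whereas the median of all genes tested was -0.03. In 9 members (12.3%) every COX10 KO library was above every CTL library, beside 4.08% of all genes tested, and in 0 members every COX10 KO library was below every CTL library, beside 2.31%. With 3 libraries per genotype, females alone gave 2 of 73 members called higher, beside 163 of 11208 genes. Males alone gave 0 of 72 members, beside 157 of 10542 genes. Thinning the libraries to 1 depth left out CTL replicate 2, which was too shallow, and so changed depth and libraries together. In that fit 5 of 71 members were called higher, beside 455 of 9559 genes. Without CTL replicate 2, 9 members were higher and 2 lower, beside 990 and 913 of 11977 genes. Without CTL replicate 3, 7 were higher and 1 lower, beside 618 and 572 of 12169 genes. At an unadjusted p under 0.05 stood 19 members (26.0%), beside 29.7% of all genes tested.

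**Figure D2:**
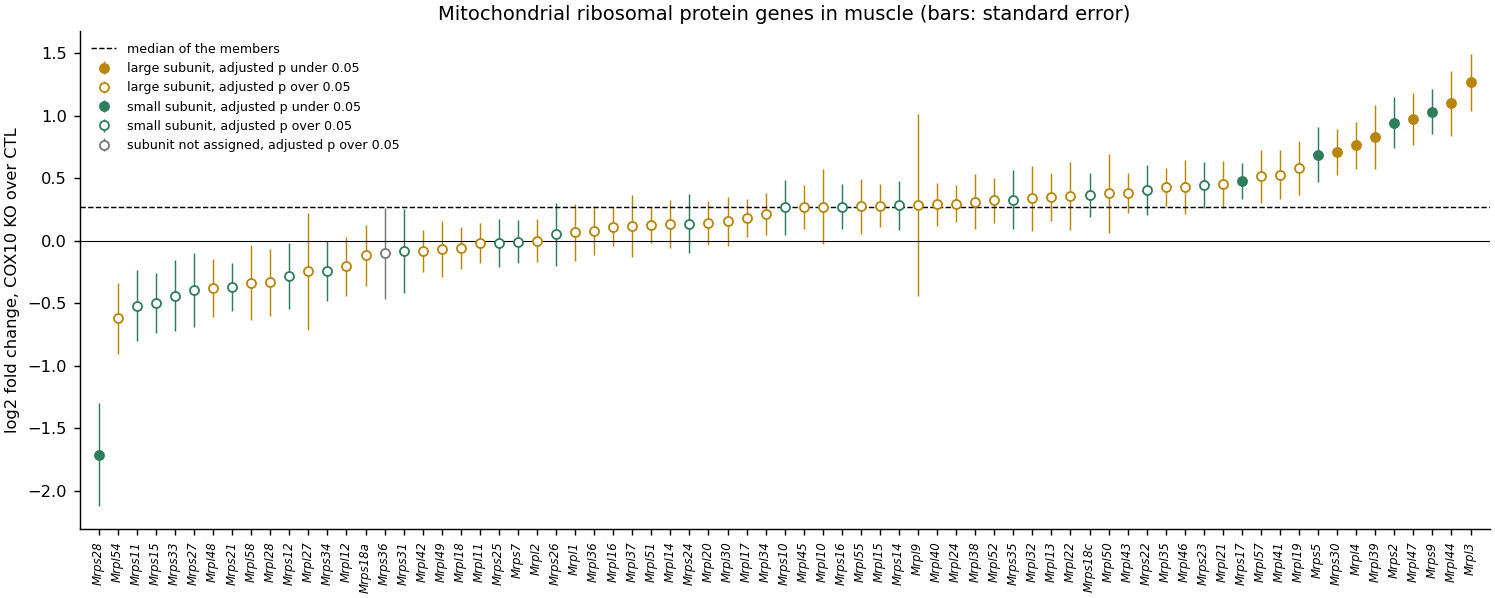
The log2 fold change of COX10 KO over CTL muscle (vertical axis) for the 73 members tested, in order of size, coloured by subunit, with bars of 1 standard error. Filled points passed an adjusted p of 0.05: 10 members above 0 and Mrps28 at -1.71, and the dashed line is the median of the members, 0.27.

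The called members belong to both subunits and to both classes of protein. Of 24 small subunit members tested, 4 were higher and 1 lower, with a median log2 fold change of 0.09, and of 48 large subunit members, 6 were higher and 0 lower, with a median of 0.27. Of 43 members with a bacterial homologue, 7 were higher and 1 lower (median 0.27), and of 29 specific to mitochondria, 3 were higher and 0 lower (median 0.27). Of the 10 called higher, Mrps9, Mrps2, Mrps17 and Mrps5 are core proteins of the small subunit with bacterial homologues. Mrpl3, Mrpl47 and Mrpl4 are such proteins of the large subunit, and Mrpl44, which carries a ribonuclease III-like fold, Mrpl39, which resembles a threonyl-tRNA synthetase, and Mrps30 are large subunit proteins with no bacterial counterpart. Mrps30 keeps a small subunit symbol from an early assignment.

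Mrps9 (chr1:42851233-42905683, GRCm38, + strand) had the smallest p-value. Its level was 50.7 to 66.4 CPM (median 57.1) in COX10 KO muscle and 20.3 to 42.4 CPM (median 26.9) in CTL muscle. The genotypes did not overlap, and the fitted change was 2.04-fold (log2 1.03 ± 0.18 SE, edgeR adjusted p = 0.00167; exact permutation p = 0.00216, the smallest that 6 against 6 libraries allow). Mrpl3 had the largest increase of the members tested. It was at 63.7 to 84.5 CPM (median 69.6) in COX10 KO muscle and 20.7 to 53.3 CPM (median 25.7) in CTL muscle, without overlap (2.41-fold, log2 1.27 ± 0.23 SE, adjusted p = 0.00211). The highest CTL library for both genes was replicate 4. The Mrpl3 gene overlaps Gm38077 on its own strand, and how shared reads were counted is not given in the sources used here.

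Mrpl47, a large subunit protein at the rim of the peptide exit, was at 87.2 to 115 CPM (median 101) in COX10 KO muscle and 27.3 to 66.0 CPM (median 53.7) in CTL muscle (log2 0.97 ± 0.20 SE, adjusted p = 0.00579). Mrps2 was at 39.4 to 56.8 CPM (median 43.4) in COX10 KO muscle and 16.4 to 32.01 CPM (median 21.3) in CTL muscle (log2 0.94 ± 0.20 SE, adjusted p = 0.00718). For both genes the genotypes did not overlap. Mrpl44 was at 36.3 to 52.5 CPM (median 50.7) in COX10 KO muscle and 11.4 to 38.9 CPM (median 21.7) in CTL muscle (log2 1.10 ± 0.26 SE, adjusted p = 0.0117). Here 5 of 6 COX10 KO libraries were above every CTL library, replicate 4 being the exception.

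Mrpl4 was at 52.8 to 90.4 CPM (median 59.3) in COX10 KO muscle and 24.0 to 55.8 CPM (median 36.5) in CTL muscle (log2 0.76 ± 0.19 SE, adjusted p = 0.0141). Mrps30 was at 44.0 to 54.4 CPM (median 50.3) in COX10 KO muscle and 14.8 to 36.2 CPM (median 33.1) in CTL muscle, without overlap (log2 0.71 ± 0.19 SE, adjusted p = 0.0200). The 3 other called members had the largest adjusted p-values, 0.0366 to 0.0477. Of them, Mrps17 was narrowly spread, at 58.0 to 67.8 CPM in COX10 KO muscle and 38.2 to 48.0 CPM in CTL muscle (log2 0.48 ± 0.14 SE), while Mrpl39 (log2 0.83 ± 0.26 SE) and Mrps5 (log2 0.69 ± 0.22 SE) overlapped. Leaving out 1 library in turn kept all 12 calls of Mrps9, Mrpl3, Mrpl47, Mrps2, Mrpl44, Mrpl4 and Mrps30. It kept 4 of 12 for Mrps17 and 3 of 12 each for Mrpl39 and Mrps5. With libraries thinned to 1 depth and CTL replicate 2 thereby left out, the calls of Mrpl47, Mrps2, Mrpl44, Mrps17 and Mrps5 were lost. With the replicate number as a block, those of Mrps30, Mrpl39, Mrps17 and Mrps5 were lost.

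**Figure D3:**
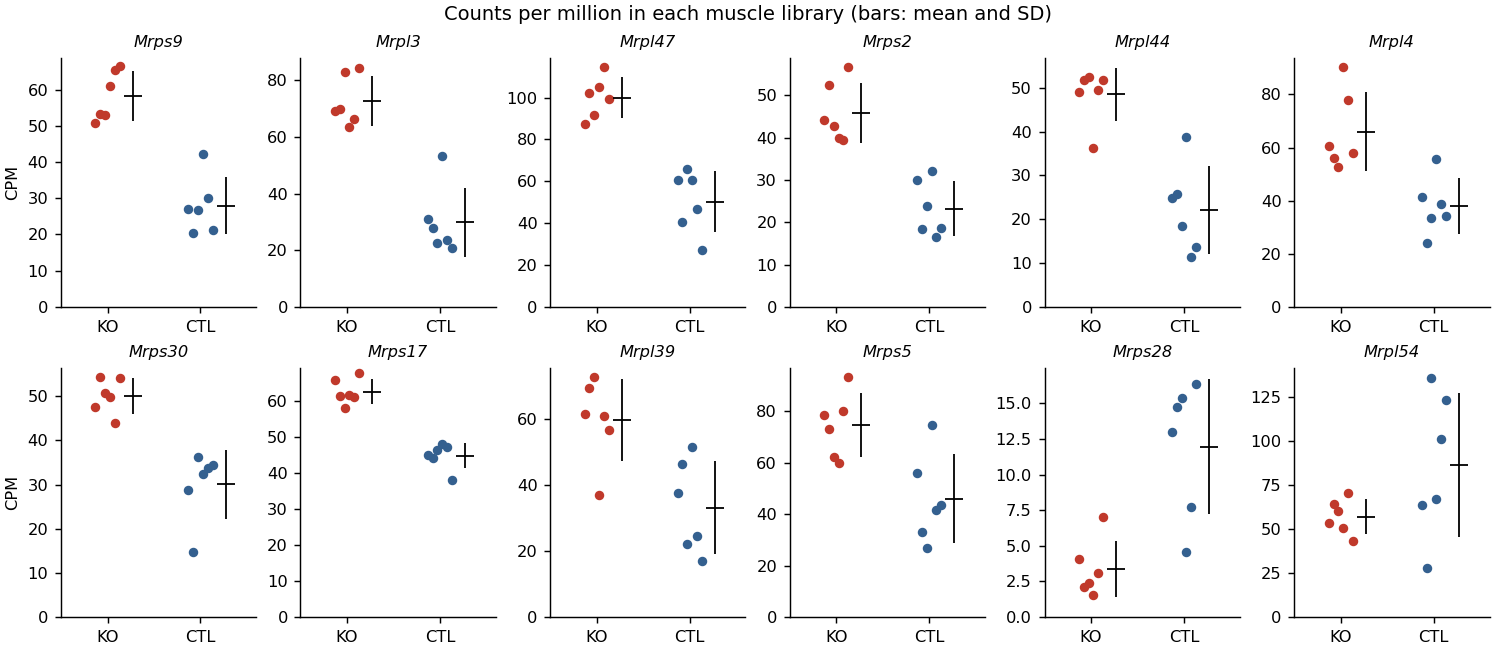
CPM in each muscle library (vertical axis, from 0) for the 10 members called higher, for Mrps28, called lower, and for Mrpl54, the next lower member by p-value. COX10 KO libraries stand left of CTL libraries, and bars are the mean and SD. Mrps9, Mrpl3, Mrpl47, Mrps2, Mrps30 and Mrps17 do not overlap between genotypes.

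A further 3 members, Mrpl35, Mrpl43 and Mrpl21, did not overlap between genotypes and missed the threshold of the fit (adjusted p = 0.0653, 0.117 and 0.118). Mrpl35, a large subunit protein, was at 56.8 to 66.7 CPM in COX10 KO muscle and 40.4 to 52.9 CPM in CTL muscle. Mrpl43 was at 51.5 to 64.3 CPM in COX10 KO muscle and 33.2 to 50.2 CPM in CTL muscle, and Mrpl21 at 32.4 to 48.6 CPM in COX10 KO muscle and 14.8 to 32.3 CPM in CTL muscle. These 3 were named after their values were seen.

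Mrps28, a small subunit protein, was the only member called lower. It was at 1.54 to 7.05 CPM (median 2.73) in COX10 KO muscle and 4.57 to 16.4 CPM (median 13.9) in CTL muscle (log2 -1.71 ± 0.41 SE, adjusted p = 0.0130). The genotypes overlapped, since COX10 KO replicate 6 was above CTL replicate 4. These values rest on 6 to 89 counts in COX10 KO and 8 to 58 counts in CTL libraries, and the gene (chr3:8802146-8923918, - strand) overlaps Gm15466 on its own strand. The call was kept in all 12 fits that left out 1 library, with an adjusted p of at most 0.0496. It was lost when libraries were thinned to 1 depth, a fit without CTL replicate 2.

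The other members that leaned lower did not pass the test. Mrpl54, a large subunit protein specific to mitochondria, was at 43.0 to 70.6 CPM (median 56.9) in COX10 KO muscle and 27.7 to 136 CPM (median 84.1) in CTL muscle (log2 -0.62 ± 0.28 SE, adjusted p = 0.156). Mrps15 was at 31.2 to 53.4 CPM (median 40.8) in COX10 KO muscle and 27.7 to 79.3 CPM (median 62.3) in CTL muscle (adjusted p = 0.173). The COX10 KO range lay inside the CTL range for both genes. Mrps21 had a log2 fold change of -0.37 ± 0.19 SE, Mrps11 of -0.52 ± 0.28 SE and Mrpl48 of -0.38 ± 0.24 SE, with adjusted p-values of 0.211 to 0.300.

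Members with a particular role are given whatever their result. Mrps18a, Mrps18b and Mrps18c are related to each other; Mrps18c is the counterpart of a bacterial small subunit protein, whereas Mrps18a (large subunit) and Mrps18b (small subunit) hold other places and are counted here as specific to mitochondria. Mrps18c was at 33.2 to 52.1 CPM in COX10 KO muscle and 23.6 to 36.9 CPM in CTL muscle (log2 0.36 ± 0.18 SE, adjusted p = 0.179), Mrps18a had a log2 fold change of -0.12 ± 0.24 SE, and Mrps18b was not tested, with 1 count in all COX10 KO and 8 in all CTL muscle libraries. Mrpl12, a protein of the stalk that recruits translation factors, was at 57.4 to 110 CPM in COX10 KO muscle and 62.7 to 139 CPM in CTL muscle (adjusted p = 0.606). Mrpl58, a peptidyl-tRNA hydrolase built into the large subunit that frees stalled chains, was at 17.6 to 33.5 CPM in COX10 KO muscle and 17.3 to 60.1 CPM in CTL muscle (adjusted p = 0.488). Mrps36, whose product is now known as a component of the 2-oxoglutarate dehydrogenase complex, was at 1.58 to 5.25 CPM in COX10 KO muscle and 1.85 to 3.85 CPM in CTL muscle (adjusted p = 0.893).

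Of the 10 members called higher, 9 had a promoter window. Of these, 1 had the ETS core, 1 the NRF1 core and 0 the YY1 letters. The median log2 fold change was 0.18 in the 23 members tested that hold the ETS core and 0.27 in the 41 without it, and -0.03 in the 12 with the YY1 letters and 0.27 in the 52 without them. For the NRF1 core the order was the other way, with 0.31 in the 6 members that hold it and 0.14 in the 58 without it. Members also sit close to other genes: 25 have the start of a protein-coding gene on the other strand within 500 bases. In the 17 distinct pairs of this kind with both genes tested in muscle, 8 pairs had the same sign and 0 had both genes called. Mrpl44 was called higher, whereas its neighbour Wdfy1 had a log2 fold change of -0.56 ± 0.32 SE (adjusted p = 0.259). Mrpl46 and Mrps11, 2 members that face each other on chr7, had log2 fold changes of 0.43 and -0.52, and neither was called.

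Genes that work with the mitochondrial ribosome are given by list, and each share called higher is to be read beside the 6.90% of all genes tested. Of 5 mitoribosomal proteins under other symbols, 2 were higher (40%), Ptcd3 (log2 0.83 ± 0.25 SE) and Aurkaip1 (0.67 ± 0.17 SE), both of the small subunit. Of 23 assembly and rRNA modification factors tested, 3 were higher (13.04%) and 0 lower, with a median of 0.26: Mettl15 (1.17 ± 0.27 SE), a methyltransferase of the small subunit rRNA, Ngrn (0.88 ± 0.22 SE) and Mpv17l2 (0.73 ± 0.20 SE). Of 15 translation factors and mRNA partners, 2 were higher (13.3%), Mrrf (0.86 ± 0.22 SE), which recycles the ribosome after termination, and Oxa1l (0.58 ± 0.19 SE), which inserts new chains into the inner membrane, and of 17 mitochondrial aminoacyl-tRNA synthetases, 2 were higher (11.8%), Rars2 (0.78 ± 0.19 SE) and Tars2 (0.65 ± 0.20 SE). None of 9 transcription and replication factors (median -0.15) and none of 9 regulators of nuclear mitochondrial genes (median 0.40) was called. Of the mRNAs that this ribosome translates, 7 of 13 were tested (median -0.31), with 1 higher (14.3%) and 1 lower (14.3%, beside 7.43% of all genes). The lower mt-Nd2 was at 6784 to 9759 CPM in COX10 KO and 16342 to 51040 CPM in CTL muscle. The higher mt-Co1 was at 4150 to 5419 CPM in COX10 KO and 2070 to 4476 CPM in CTL muscle. In muscle mt-Nd3, mt-Nd4l, mt-Co2 and mt-Atp8 had 0 counts, which is not read as absence of the transcripts. How reads were assigned to these genes is not given in the sources used here, so the values of this list are uncertain to that extent.

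Beside other protein families, the members' 10 of 73 called higher (13.7%, median 0.27) stood with 15 of 78 cytosolic ribosomal protein genes (19.2%, median 0.34) and 1 of 36 nuclear-encoded complex I subunit genes (2.78%, median 0.13). None of the cytosolic ribosomal protein or complex I genes was lower. Markers of other cells moved in the same libraries. Of 6 tested markers of satellite cells and regenerating fibres, 4 were higher (Myog, Myh3, Myh8 and Mymk), and the summed level of the list was 196 to 291 CPM in COX10 KO and 20.3 to 35.9 CPM in CTL muscle. Of 12 tested macrophage markers, 4 were higher (Cd68, C1qa, Lyz2 and Ctss), with sums of 268 to 636 CPM in COX10 KO and 139 to 458 CPM in CTL muscle, and Itgam at 0. Of 7 skeletal muscle markers, 3 were lower (Myh4, Tnnt3 and Pvalb), with sums of 54311 to 99687 CPM in COX10 KO and 55639 to 152978 CPM in CTL muscle. Of 6 fibroblast markers, 1 was lower (Col1a2) and 2 had a positive log2 fold change. Their sums overlapped, at 763 to 1151 CPM in COX10 KO and 871 to 1329 CPM in CTL muscle. Of 3 tested neuron markers, 1 was lower (Syt1), with low sums of 4.62 to 13.9 CPM in COX10 KO and 14.0 to 46.1 CPM in CTL muscle. The 5 erythrocyte markers all had a negative log2 fold change (median -1.78), 3 with an unadjusted p under 0.05 and 0 called, with sums of 1053 to 2590 CPM in COX10 KO and 1175 to 11296 CPM in CTL muscle. In whole tissue, fewer cells of a type and less RNA per cell cannot be told apart, and the part of these markers in the members' result was not tested.

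In liver, 71 members were tested and 0 were called by edgeR, beside 0.0927% of the 9707 genes tested. At an unadjusted p under 0.05 stood 0 members, beside 4.98% of genes. DESeq2 also called 0 members, beside 19 genes higher and 36 lower of 12747. The median log2 fold change was 0.04 and 39 of 71 were positive. The smallest p-values belonged to Mrpl44, Mrps18c and Mrpl21. Mrpl44 was at 1.64 to 20.02 CPM (median 16.0) in COX10 KO liver and 11.1 to 44.1 CPM (median 22.8) in CTL liver (log2 -0.65 ± 0.36 SE, adjusted p = 0.997). Mrps18c was at 13.1 to 32.4 CPM in COX10 KO liver and 25.5 to 38.7 CPM in CTL liver (log2 -0.41 ± 0.22 SE), and Mrpl21 at 19.6 to 26.99 CPM in COX10 KO liver and 15.2 to 26.1 CPM in CTL liver (log2 0.35 ± 0.20 SE). The genotypes overlapped in all 3. The median SE of a member's log2 fold change was 0.28 in liver, 0.21 in muscle and 0.22 in hypothalamus. In the same libraries the summed level of macrophage markers was 216 to 525 CPM in COX10 KO and 334 to 1371 CPM in CTL liver, with Itgam at 0. All 12 tested macrophage markers had a negative log2 fold change (median -1.30) and 9 had an unadjusted p under 0.05, although 0 were called. The summed skeletal muscle markers were at 0.852 to 609.6 CPM in COX10 KO and 1.17 to 33.6 CPM in CTL liver, and the part of either list in the members' values was not tested. Without the libraries labelled CTL 1 and CTL 4, 0 members were called, beside 2 genes higher and 14 lower of 9895, and the members' median was 0.16.

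In hypothalamus, 72 members were tested and 0 were called by edgeR, beside 0% of the 13504 genes tested. At an unadjusted p under 0.05 stood 0 members, beside 1.56% of genes. With DESeq2 0 members were called, beside 0 of 25451 genes. There 1 member (1.33%) had an unadjusted p under 0.05, beside 1.13% of genes. The median log2 fold change was 0.01 and 38 of 72 were positive. Mrps14, a small subunit protein, was at 18.9, 16.7, 28.8 and 21.2 CPM in COX10 KO and 23.3, 26.5, 28.9 and 47.0 CPM in CTL hypothalamus (log2 -0.54 ± 0.26 SE). Mrpl27 was at 17.8, 18.3, 21.1 and 23.0 CPM in COX10 KO and 20.5, 18.3, 31.2 and 59.6 CPM in CTL hypothalamus (log2 -0.68 ± 0.33 SE), and Mrps31 at 17.1, 12.8, 11.3 and 11.4 CPM in COX10 KO and 17.5, 17.3, 13.4 and 22.9 CPM in CTL hypothalamus (log2 -0.43 ± 0.23 SE). The genotypes overlapped in all 3, and CTL replicate 4 was the highest library in each. With the replicate number as a block, 7 members (9.72%) had an unadjusted p under 0.05, beside 9.33% of all genes, and 0 were called, beside 0.0148% of genes called higher. Ttr, a transthyretin transcript on both the choroid plexus and the liver list, was at 3153 to 5270 CPM in COX10 KO and 1232 to 2818 CPM in CTL hypothalamus, without overlap. It made up nearly all of the summed choroid plexus list (3215 to 5321 CPM in COX10 KO and 1264 to 2852 CPM in CTL hypothalamus), whose 6 markers had a median log2 fold change of 0.27. Of the 8 hypothalamus markers, 4 had an unadjusted p under 0.05, in both directions (Agrp with a log2 fold change of 1.75, and Oxt, Sim1 and Avp with negative ones, the lowest -1.34 for Oxt), and 0 were called. The part of these markers in the members' values was not tested.

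**Figure D4:**
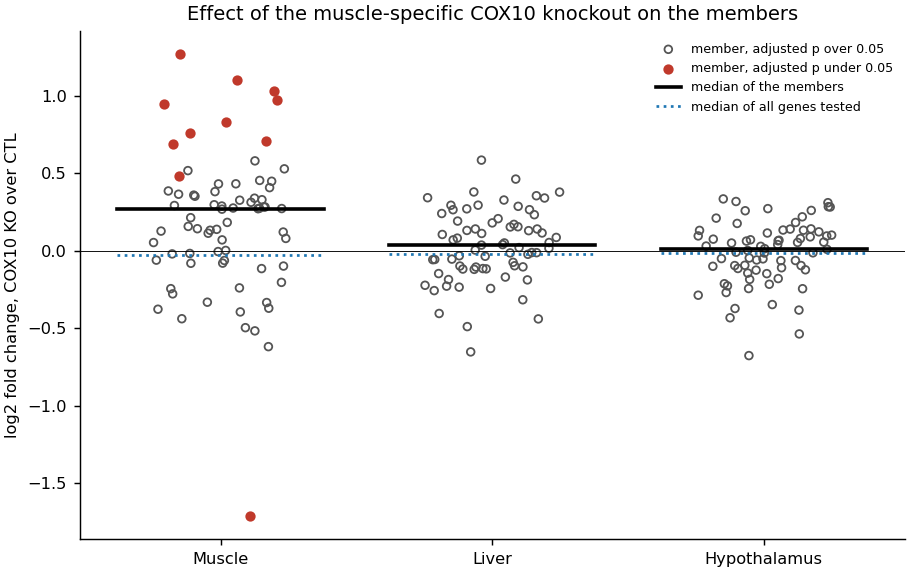
The log2 fold change of COX10 KO over CTL (vertical axis) of each member tested in muscle (73), liver (71) and hypothalamus (72). Filled points passed an adjusted p of 0.05 and solid and dotted lines are the medians of the members and of all genes tested. The median of the members is 0.27 in muscle, 0.04 in liver and 0.01 in hypothalamus.

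The difference between tissues was tested as an interaction in a joint fit of all 32 libraries. The effect in muscle exceeded the effect in liver for 4 of 73 members called higher, beside 1.64% of 15154 genes, and 0 were called lower, beside 1.19%. They were Mrpl44 (difference in log2 fold change 1.80 ± 0.49 SE, adjusted p = 0.0362), Mrps9 (1.01 ± 0.27 SE, adjusted p = 0.0382), Mrps30 (0.97 ± 0.27 SE, adjusted p = 0.0419) and Mrpl3 (1.52 ± 0.43 SE, adjusted p = 0.0482). In liver, Mrps9 was at 17.9 to 31.1 CPM in COX10 KO and 15.3 to 29.2 CPM in CTL mice, Mrps30 at 17.5 to 27.8 CPM in COX10 KO and 23.0 to 29.8 CPM in CTL mice, and Mrpl3 at 4.56 to 23.5 CPM in COX10 KO and 9.18 to 26.6 CPM in CTL mice. These calls lie near the threshold. Without the liver libraries labelled CTL 1 and CTL 4, 0 of the 4 were called (edgeR adjusted p = 0.0532 to 0.0664, differences of 0.92 to 1.70). Relative log expression factors moved the median of all genes to -0.10 and left 1 member called higher, beside 191 of 15154 genes. Without CTL muscle replicate 2, 2 members were called higher, beside 289 of 15625 genes. Without COX10 KO liver replicate 3 Mrpl44 still differed by 1.66 (edgeR adjusted p = 0.0350).

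Muscle against hypothalamus gave 0 members called in either direction by edgeR, beside 0.614% of genes higher and 0.277% lower; 11 members (15.1%) reached an unadjusted p under 0.05, beside 11.9% of genes, and 2 were called higher and 0 lower with DESeq2, beside 1.17% and 1.29% of genes. The smallest p-values were those of Mrps9 (difference 1.02 ± 0.30 SE, adjusted p = 0.106) and Mrpl47 (1.12 ± 0.33 SE, adjusted p = 0.114). Liver against hypothalamus gave 0 members called by edgeR, beside 0% of genes, and 0 at an unadjusted p under 0.05, beside 3.71% of genes. With DESeq2 0 of 50 members tested were called, beside 4 genes higher and 2 lower of 5115. The effect of genotype differed between the labelled sexes for 0 members in muscle and 0 in liver, beside 0% of genes in each. For this difference, muscle had 0 of 73 members at an unadjusted p under 0.05, beside 459 of 12065 genes. Liver had 0 of 72 members, beside 123 of 10030 genes. DESeq2 called 0 members in muscle, beside 1 gene higher and 3 lower of 21501. In liver DESeq2 called 0 members, beside 0 of 20254 genes.

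The levels of the members themselves spanned a wide range. Reads come from the 3′ end of each transcript, so a count does not scale with transcript length, but genes still differ in how well that end is captured and assigned, and levels of different genes are given as a description. Here CPM were scaled over all 32 libraries, and so differ somewhat from the values above, which were scaled within a tissue. In CTL mice, members averaged up to 237 CPM in muscle (median 35.0), up to 181 CPM in liver (median 35.5) and up to 51.0 CPM in hypothalamus (median 19.6). The 5 highest by mean over all libraries were Mrpl34, Mrpl18, Mrpl42, Mrpl12 and Mrpl30. Of 75 members with any count, CTL muscle had the highest mean for 38, CTL liver for 33 and CTL hypothalamus for 4.

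**Figure D5:**
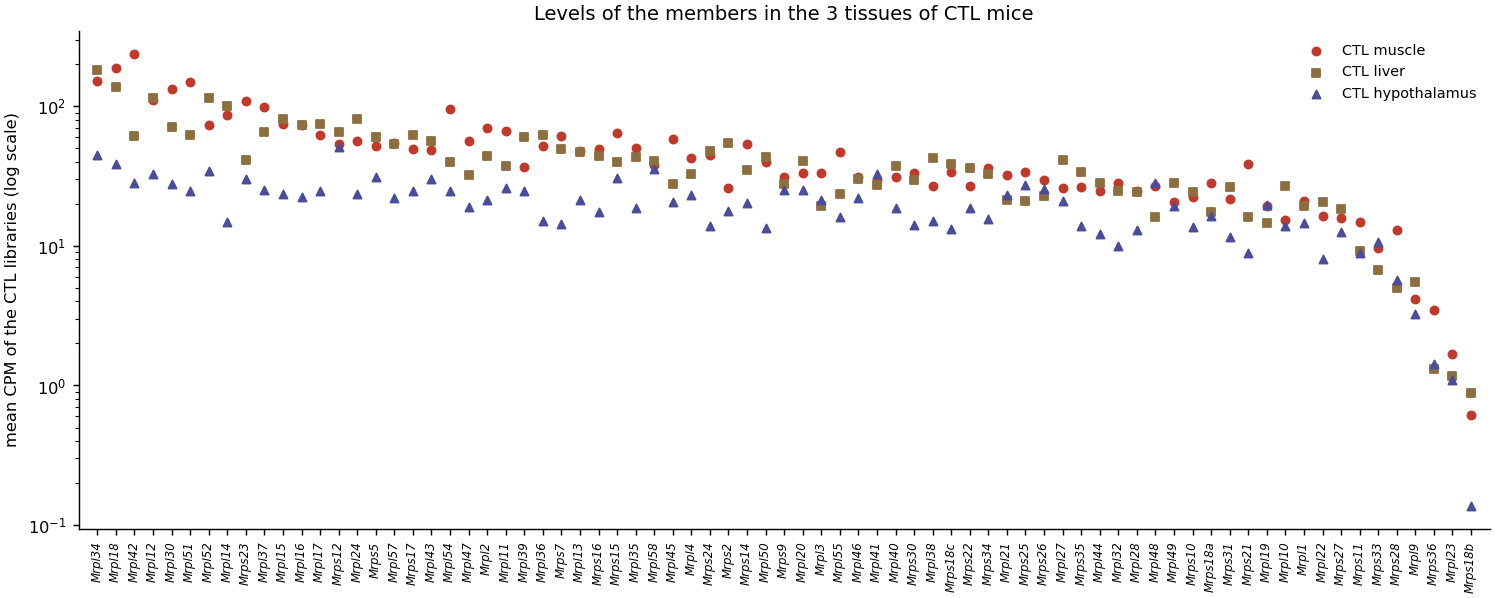
Mean CPM of the CTL libraries (vertical axis, log scale) of the 75 members with any count, in order of the mean over all 32 libraries, for muscle, liver and hypothalamus. Hypothalamus lies lowest for most members, and Mrpl42 reaches 237 CPM in muscle against 61.6 CPM in liver and 28.4 CPM in hypothalamus.

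Mrpl42, a large subunit protein specific to mitochondria, differed most between muscle and liver. It was at 146 to 309 CPM (median 237) in CTL muscle, 53.3 to 67.6 CPM (median 62.5) in CTL liver and 22.8 to 35.4 CPM (median 27.6) in CTL hypothalamus, with no overlap between tissues (muscle minus liver log2 1.95 ± 0.19 SE, adjusted p = 1.93e-10; hypothalamus minus muscle -3.07 ± 0.24 SE, adjusted p = 6.55e-13). In muscle its KO effect was not called. Mrpl34, by contrast, was at 128 to 183 CPM in CTL muscle and 122 to 240 CPM in CTL liver, ranges that overlap, and at 30.8 to 62.1 CPM in CTL hypothalamus. Mrpl18 had 151 to 250 CPM in CTL muscle, 101 to 167 CPM in CTL liver and 34.3 to 41.1 CPM in CTL hypothalamus. Mrpl30 and Mrpl12 were likewise above hypothalamus in every CTL muscle and CTL liver library.

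Between CTL muscle and CTL liver, 21 of 73 members were higher in muscle, beside 28.8% of 15154 genes, and 4 were lower (Mrpl52, Mrps2, Mrpl38 and Mrpl10), beside 26.7%. CTL liver here includes the libraries whose sex-linked transcripts went against the label. The next largest differences after Mrpl42 were Mrps36 (log2 1.57 ± 0.52 SE), which is near the floor of detection, and Mrps23 (1.37 ± 0.30 SE), at 62.9 to 151 CPM in CTL muscle and 35.5 to 58.7 CPM in CTL liver.

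In CTL hypothalamus, 1 member was higher than in CTL liver (Mrpl48, which has an annotated pseudogene), beside 40.0% of genes, and 48 were lower, beside 29.4%. Against CTL muscle, 0 were higher, beside 37.4%, and 52 were lower, beside 26.6%. The median log2 difference of the members was -0.97 from liver and -1.09 from muscle, whereas that of all genes was 0.26 and 0.28. These values depend on scaling: with library totals alone the median of all genes moved to 1.09 and 1.14, and that of the members to -0.12 and -0.19. The members called became 11 higher and 16 lower of 73 from liver, beside 8590 and 2752 of 15154 genes. From muscle they became 11 higher and 23 lower, beside 8516 and 2138 genes. Relative to the median of all genes, the members stood at -1.23 from liver and -1.37 from muscle with TMM, and at -1.21 and -1.34 with library totals. A change of scaling shifts every gene by nearly the same amount, so the closeness of these values is no check on the result. The largest differences from liver were Mrpl14 (log2 -2.75 ± 0.28 SE), at 11.7 to 17.2 CPM in CTL hypothalamus and 71.0 to 123 CPM in CTL liver, Mrpl36 (-2.05 ± 0.27 SE) and Mrpl34 (-2.01 ± 0.26 SE). From muscle they were Mrpl42, Mrpl51 (-2.60 ± 0.25 SE), at 17.8 to 30.2 CPM in CTL hypothalamus and 118 to 181 CPM in CTL muscle, and Mrpl14 (-2.51 ± 0.28 SE). Mrpl14 and Mrpl36 encode large subunit proteins with bacterial homologues.

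At the low end, Mrps6, Mrpl33 and Mrpl53 had 0 counts in all 32 libraries, which allows up to 3 counts in each. Each of them overlaps another annotated gene on its own strand, as do 12 of the 78 members, and how the counting treated reads shared by overlapping genes is not given in the sources used here, so these zeros are not read as absence of the transcript. Mrps18b had 48 counts over all libraries and Mrpl23 had 207. GENCODE M21 annotates processed pseudogenes of Mrpl23 (652 counts over all libraries), of Mrpl48 (10 counts) and 3 of Mrps36 (24, 0 and 0 counts). Whether reads were split between these copies and the genes was not tested, and the values of the 3 members are uncertain to that extent.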

How the data were processed

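RNA was measured by QuantSeq 3′ mRNA sequencing (FWD kit, single-end reads of 86 bases). BBDuk (trimming), STAR 2.5.0a (alignment, GRCm38.p6) and HTSeq-count 0.6.1 (counting per gene) were run by the authors; the annotation release and the strand setting are not given in the sources used here. The authors deposited raw counts of reads for 55401 gene identifiers, and GENCODE M21 (GRCm38) gave a symbol for 55141. No 2 of the 32 libraries were identical. Sources do not say whether samples were processed together, and p-values measure the spread between these libraries.

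Genotype was tested within each tissue by the two-sided quasi-likelihood F test of edgeR 4.0.16 (R 4.3.3) after filterByExpr and TMM scaling. Muscle and liver fits held labelled sex, and p-values were adjusted by Benjamini-Hochberg over all genes tested, with a threshold of 0.05. Differences between tissues and levels in CTL tissues came from 1 joint fit of 32 libraries, and differences between sexes from an interaction term. Standard errors were taken from the F statistic. Levels are CPM over TMM-scaled library sizes, scaled within a tissue for the genotype comparison and over all libraries for levels between tissues, with exact two-sided permutation tests in Python 3.11.15. The floor of 3 counts reflects counting error alone. The calculations were tested on simulated data. Promoter windows are RefSeq's, GRCm38.p6.

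The members and lists were chosen with earlier results of these data known. The genes given with values were, by rule, the 6 higher and 6 lower members with the smallest p in muscle, the 3 smallest p in liver and in hypothalamus, the 4 smallest p of the muscle minus liver interaction, the 3 largest differences of each pair of CTL tissues, the 5 highest and 5 lowest levels, Mrps18a, Mrps18b, Mrps18c, Mrpl58, Mrps36, Mrpl12 and Mrps30, and up to 4 called genes of each list. Alternatives were relative log expression factors, DESeq2 1.42.0 (the authors' tool), no filter, a minimum of 10 counts per library, a block for the replicate number (in place of sex), each library left out, libraries thinned to 1 depth, no sex term, each sex alone, library totals, and liver without the libraries labelled CTL 1 and CTL 4. Leaving single libraries, or those 2, out of the joint fit was chosen after seeing the data.

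Deviations from group means were correlated between libraries of the same number. In hypothalamus all 4 pairs were above 0.1 (0.204 to 0.805), although no label states a pairing, and the blocked result is given there. In muscle (-0.171 to 0.231) and liver (-0.525 to 0.491) the numbers did not pair the libraries.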

Additional observations from a re-analysis of the deposited data

Results flagged for a closer look

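In 4 of 50 groups of values examined, 1 library lay far from the others of its group, and chance gives about 1 in 20. CTL muscle replicate 4 had 53.3 CPM of Mrpl3, with the next CTL library at 31.0 CPM. COX10 KO muscle replicate 4 had 36.3 CPM of Mrpl44, with the next COX10 KO library at 49.0 CPM. CTL muscle replicate 2, the shallowest library of the tissue, had 14.8 CPM of Mrps30, with the next CTL library at 28.7 CPM. COX10 KO liver replicate 3 had 1.64 CPM of Mrpl44, with the next COX10 KO library at 13.2 CPM. Leaving out any 1 of the 3 muscle libraries kept these genes called in muscle.

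The effect of genotype differed between muscle and liver, by the interaction test of edgeR, for Mrpl44 (difference in log2 fold change 1.80), Mrpl3 (1.52), Mrps9 (1.01) and Mrps30 (0.97). In each the muscle effect was positive, and the liver effect was -0.65 ± 0.36 SE for Mrpl44, -0.19 ± 0.38 SE for Mrpl3, 0.10 ± 0.22 SE for Mrps9 and -0.17 ± 0.20 SE for Mrps30, none of them called. All 4 differences lost their call without the liver libraries labelled CTL 1 and CTL 4 (adjusted p = 0.0532 to 0.0664), whose sex-linked transcripts went against the label, and in males only (adjusted p = 0.210 to 0.399).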

How the results depend on the processing

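In muscle, 10 members were called higher and 1 lower, and the median log2 fold change was positive under every alternative run. The number called higher was 6 with the replicate block and 5 with libraries thinned to 1 depth, a fit without CTL replicate 2. It was 2 in females only, 0 in males only, and 7 to 10 when 1 library was left out (median 0.18 to 0.30). The number called lower was 0 with at least 10 counts in every library, with thinned libraries and in males only, and 1 to 2 when 1 library was left out. In liver and hypothalamus 0 members were called under every alternative run. The most genes called in liver were 57 higher and 118 lower of 20292, with no filter. In hypothalamus the most were 2 higher and 0 lower of 13504, with the replicate block, so few calls of any gene were made there. Leaving out 1 library gave medians of -0.04 to 0.11 in liver and -0.04 to 0.07 in hypothalamus. For muscle minus liver, the 4 members called higher became 1 with relative log expression factors, beside 191 of 15154 genes. With at least 10 counts in every library they became 1 of 40, beside 118 of 2831 genes. They became 0 in males only, beside 59 of 15275 genes. Without the liver libraries labelled CTL 1 and CTL 4 they became 0, beside 212 of 15497 genes. Without 1 of 4 libraries they were 2 to 6, beside 236 to 318 genes. For muscle minus hypothalamus, 0 members called higher became 2 with DESeq2, beside 178 of 15248 genes. The number was 2 with at least 10 counts in every library, beside 41 of 2831 genes. Without 1 library it was 0 to 1, beside 82 to 116 genes. In CTL muscle minus liver, males only gave 12 higher and 1 lower, beside 3556 and 3420 of 15275 genes. From liver, CTL hypothalamus had 4 members higher with relative log expression factors or DESeq2, beside 6521 of 15154 and 7107 of 18986 genes. In males only it had 0, beside 5555 of 15275. With library totals 11 members were higher and 16 lower, beside 8590 and 2752 of 15154 genes. From muscle, library totals gave 11 higher and 23 lower, beside 8516 and 2138 genes. The cause of these changes was not tested. Each sex alone has 3 libraries per genotype, and the sex of 2 liver libraries went against the label. In muscle, all genes called were 803 higher and 865 lower of 11636, and 525 and 479 of 11636 with the replicate block. They were 455 and 446 of 9559 with thinned libraries, 163 and 134 of 11208 in females only, and 157 and 124 of 10542 in males only. Without 1 library they were 482 to 996 higher and 431 to 1056 lower.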
